A study of Homo sapiens with 6 samples.

Results

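The genes of glutathione metabolism and of the NRF2 oxidative defence were examined in the parental prostate cancer cell line C4-2B and in its cabazitaxel-resistant subclone RC4-2B. A list of 38 gene symbols was matched exactly to the gene names of the count table, which gave 39 of its 58735 rows, because SOD2 is listed under 2 Ensembl identifiers. The matching uses gene names alone and no measured value, but the list was chosen with earlier results of these data known. After the filter on low counts, 34 of the 38 genes were tested, among 15054 genes tested in all. GPX2, GSTM2, GSTM4 and GSTP1 did not pass the filter and are described by their counts.

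C4-2B is a castration-resistant derivative of the LNCaP line with the capacity to grow in bone. RC4-2B was produced from it by repeated 72 h exposures to cabazitaxel (CBZ), a taxane that stabilises microtubules, at concentrations raised from 0.1 nM to 20 nM over 4 months. It is 1 subclone, so a difference between the lines belongs to that subclone and cannot be told apart from differences that arose during cloning or long culture. Total RNA of cells grown with 10% fetal bovine serum was sequenced in 3 libraries per line, which the labels call biological replicates. Whether CBZ was in the medium of RC4-2B at harvest is not given in the sources used here.

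NRF2, encoded by NFE2L2, is a transcription factor that KEAP1 holds in the cytoplasm and delivers for degradation. Oxidants and electrophiles modify cysteines of KEAP1, and NRF2 then accumulates, pairs with a small MAF protein and binds antioxidant response elements in the promoters of detoxification genes. Its classical targets build glutathione, a cysteine-containing tripeptide that reduces peroxides and is coupled to drugs by glutathione transferases, and they supply the thioredoxin system and the NADPH that both systems consume.

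The libraries held 15707134 to 18052517 counts on genes, so 3 counts corresponded to 0.170 to 0.188 CPM (counts relative to the library total, scaled by edgeR's TMM factors). RC4-2B replicate 2 stood apart from the other libraries. The standard deviation (SD) of its log2 difference from RC4-2B replicates 1 and 3 was 0.628 and 0.551 across 11189 genes, against 0.244 between those replicates and 0.166 to 0.220 between C4-2B libraries. Its deviation from the other RC4-2B libraries fell with the GC content of the transcript, with a Spearman correlation of -0.656 across 14948 genes of this one library, which are not independent replicates. Values without this library are therefore given beside the fold changes of named genes where they change a call or a direction or move a value by over 1.5 times. Weaker GC trends remain without it. The log2 difference correlated with GC content at 0.381 between RC4-2B replicates 1 and 3, and at 0.036 to 0.296 between C4-2B libraries (Spearman). In bulk libraries, fewer cells of a kind and less RNA per cell cannot be told apart, and the p-values measure the spread between cultures of a single subclone and its parent. FOLH1, KRT8 and KRT18, which mark luminal prostate cells, lay at 222 CPM or more in every library, whereas the androgen-regulated markers KLK3 and TMPRSS2 were called lower in RC4-2B. The basal markers KRT5 and TP63 and the endothelial marker PECAM1 were at 0 counts in every library, all 5 leukocyte markers were at or under 3 counts, and the fibroblast markers COL1A2, DCN and LUM were at 0. Other markers of those lists were detected. COL1A1 read 21.2 to 36.6 CPM and PDGFRB 2.10 to 3.25 CPM. COL3A1 had a log2 fold change of 1.69 (adjusted p 0.0512 in edgeR and 0.0216 in DESeq2). The endothelial marker VWF had one of -0.84 (adjusted p 0.0645 in edgeR and 0.016 in DESeq2). Without RC4-2B replicate 2, edgeR called COL1A1 (0.45, adjusted p 0.0326) and COL3A1 (1.66, adjusted p 0.0156) higher. It then called VWF lower (-0.82, adjusted p 0.0131). The summed level of the fibroblast list was 24.5 to 27.9 CPM across C4-2B and 26.8 to 41.3 CPM across RC4-2B, and that of the endothelial list 7.47 to 8.14 and 3.70 to 5.07 CPM. The part of such markers in the results was not tested.

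At the threshold used here, none of the oxidative defence genes was called different between the lines, and TXNRD1 and ME1, both with higher values in RC4-2B, came closest. The quasi-likelihood test of edgeR, adjusted over all genes tested by Benjamini-Hochberg, called 0 of the 34 genes at an adjusted p under 0.05 in either direction (0 higher and 0 lower). Of all genes tested it called 1.98%, with 162 higher (1.08%) and 136 lower (0.903%). At an unadjusted p under 0.05, which 21.4% of all genes reached, 4 of the 34 genes were higher (NFE2L2, TXNRD1, ME1 and GSTA4, against 12% of all genes) and 3 were lower (NQO1, GPX8 and GPX1, against 9.42%). DESeq2 called 2 of them, TXNRD1 and ME1, both higher, while it called 5.93% of all genes, 3.28% higher and 2.64% lower. Limma on log2 FPKM called 0 of them.

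The confidence intervals give the range of changes compatible with each gene in the edgeR fit with all libraries. They are not adjusted for the number of genes tested and hold for that fit alone. The log2 fold changes of RC4-2B over C4-2B ran from -0.95 for SRXN1 to 0.54 for ME1, with a median of -0.02, against a median of 0.0063 over all genes tested. Of the 34 genes, 16 had a log2 fold change above 0 and 18 below 0. The 95% interval lay within -1 to 1 for 31 of them, that is, within a doubling or halving of the transcript, as it did for 69.8% of all genes tested. The exceptions were SRXN1, GPX3 and GPX8. The CPM values of the lines did not overlap for 14 genes, with RC4-2B above C4-2B for 5 (against 17% of all genes tested) and below it for 9 (against 17.1%).

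**Figure D1:**
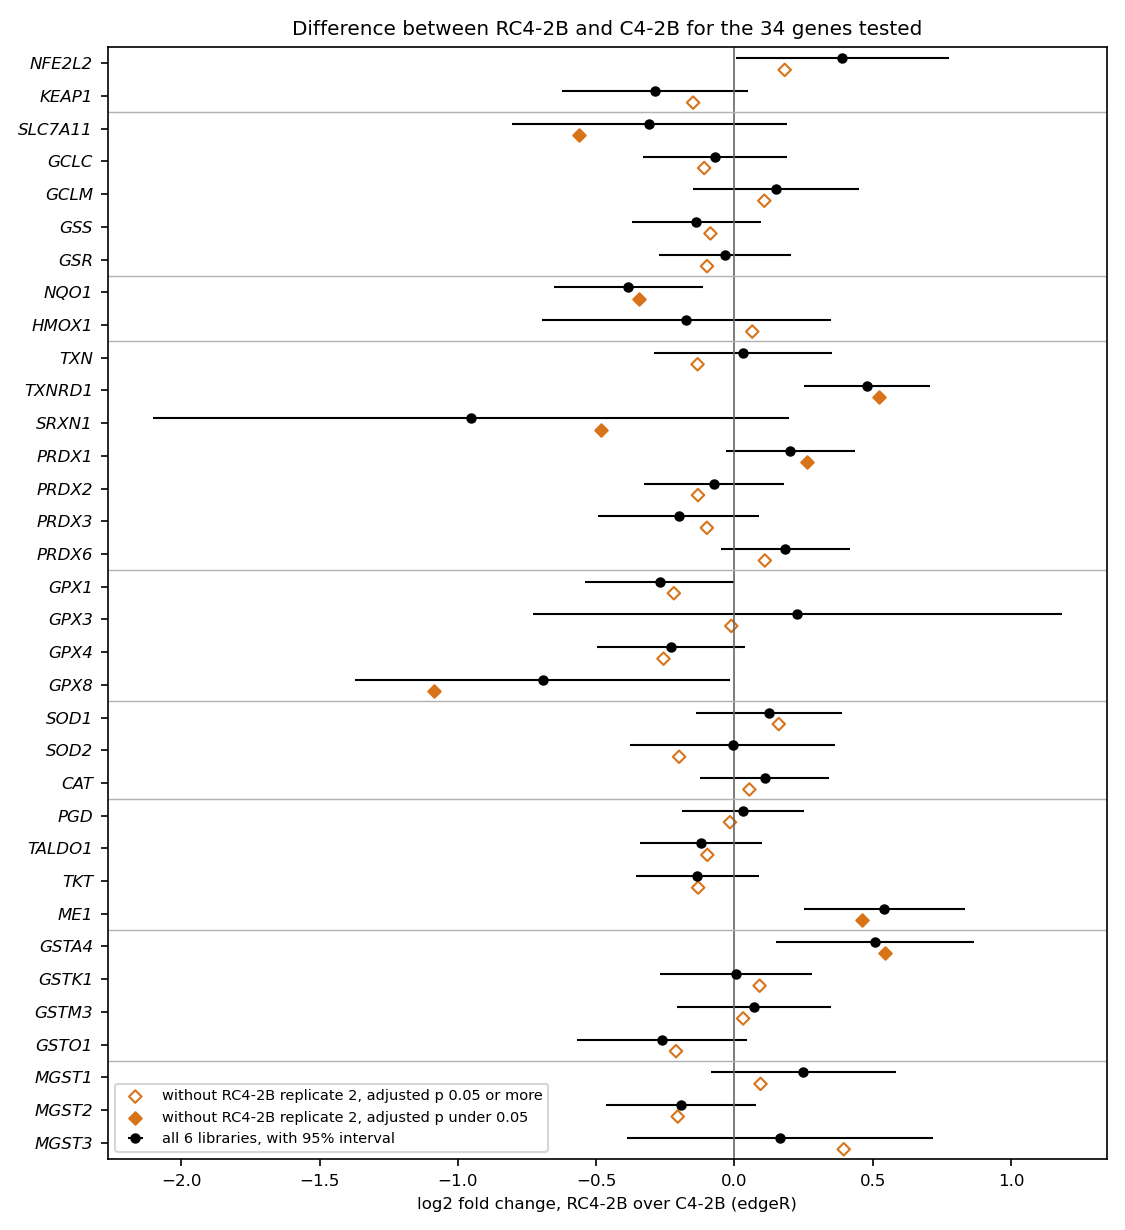
Log2 fold change of RC4-2B over C4-2B for the 34 genes tested, grouped by role. Black points and lines give the edgeR estimate and 95% interval over all 6 libraries, and diamonds the estimate without RC4-2B replicate 2, filled where the adjusted p was then under 0.05. SRXN1 has the widest interval, and 8 diamonds are filled.

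Which of the 34 genes were called depended on the libraries kept and on the processing. Without RC4-2B replicate 2, edgeR called 8 of the 34 genes, namely TXNRD1, PRDX1, ME1 and GSTA4 higher and NQO1, SLC7A11, GPX8 and SRXN1 lower. The share of all genes called was then 12.5%, with 6.5% higher and 6.02% lower. With an offset that removed the GC trend of each library, ME1 was called higher and NQO1 and GPX8 lower, while 7.62% of all genes were called, 4.36% higher and 3.25% lower. With that offset and without RC4-2B replicate 2, TXNRD1, ME1 and GSTA4 were called higher and NQO1, SLC7A11, GPX8 and SRXN1 lower, beside 13.3% of all genes, 6.74% higher and 6.59% lower.

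**Figure D2:**
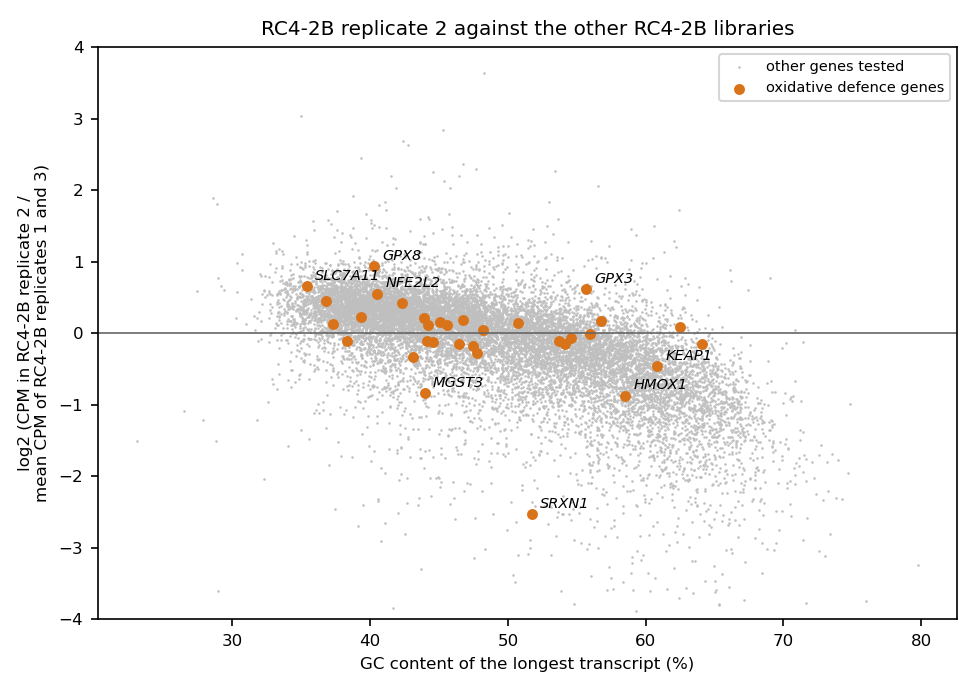
Log2 ratio of CPM in RC4-2B replicate 2 to the mean of RC4-2B replicates 1 and 3 (vertical axis, drawn from -4 to 4, which leaves out 21 genes) against transcript GC content in percent (horizontal axis). Each grey point is a gene tested and each orange point one of the 33 oxidative defence genes with a known GC content. SRXN1 lies at -2.53, below most genes of similar GC content, and HMOX1 and KEAP1 at -0.87 and -0.46, within the main band.

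Across the genes of oxidative defence, the deposited FPKM values (fragments scaled to gene length and to the library total, used here wherever levels of different genes are compared) were highest for cytosolic peroxiredoxins and below 1 in every library for GPX2 and GPX3. The peroxiredoxin gene PRDX1 had the highest level, with 303 ± 16.6 FPKM in C4-2B and 354 ± 17.9 FPKM in RC4-2B (SD, n = 3). GPX1 (235 ± 21.6 FPKM), PRDX2 (233 ± 21.8 FPKM) and PRDX6 (208 ± 10.5 FPKM) followed in C4-2B. The levels of GPX1 and PRDX2 differed by less than 1 SD, so their order is not resolved. GCLC, which encodes the catalytic subunit of the rate-limiting enzyme of glutathione synthesis, stood near the low end with 4.13 ± 0.245 FPKM in C4-2B, and its regulatory partner GCLM stood higher, at 11.7 ± 0.708 FPKM.

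**Figure D3:**
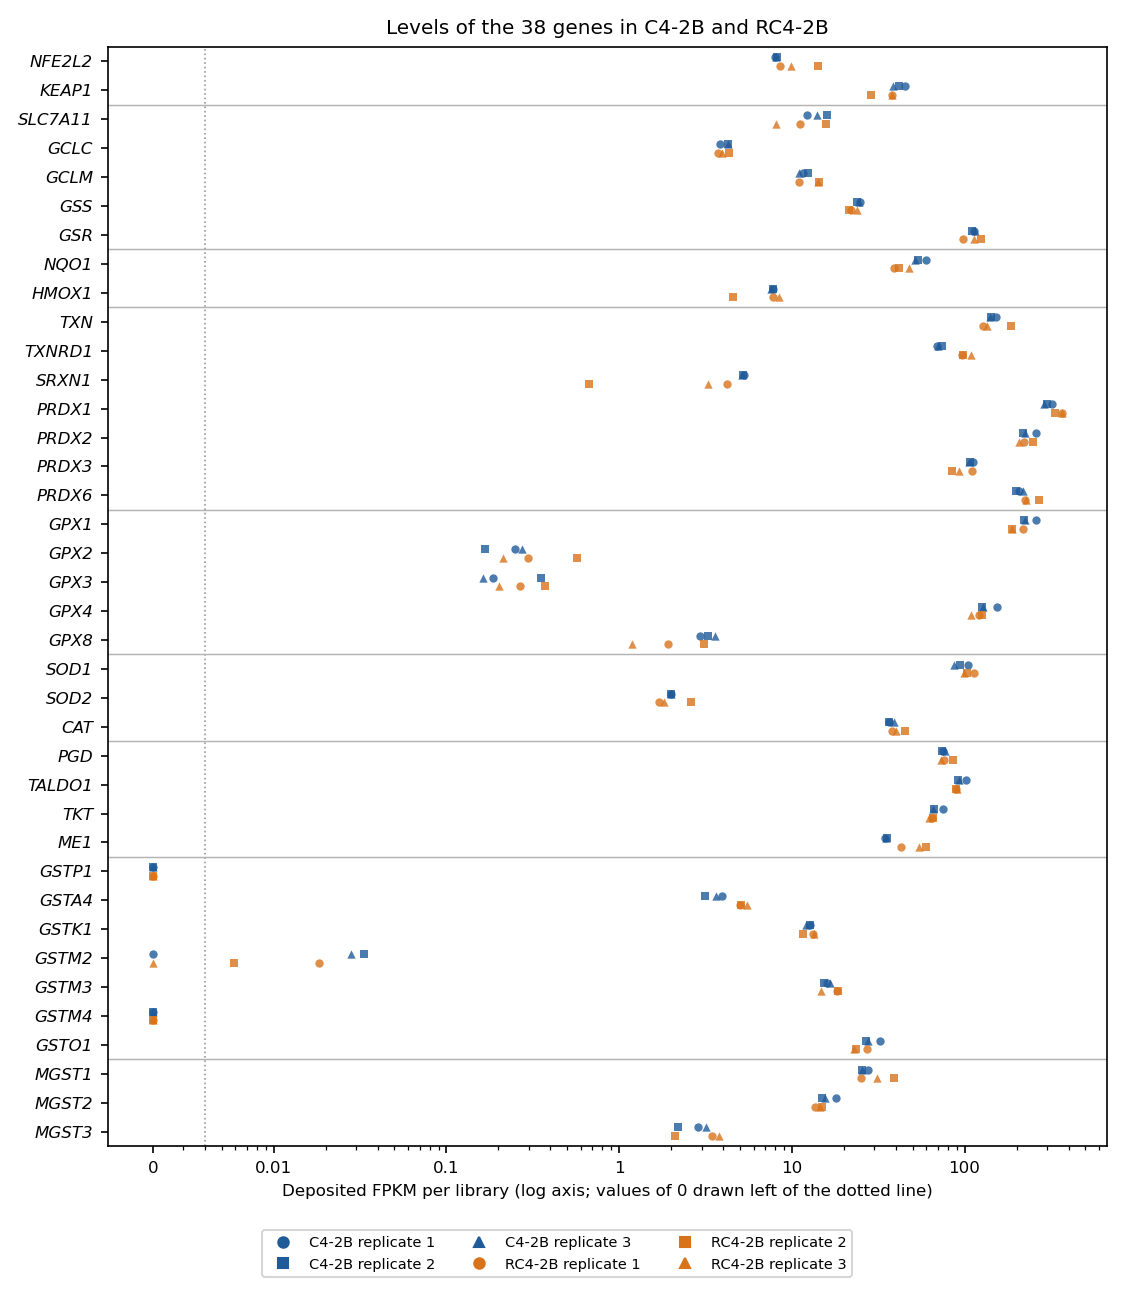
Deposited FPKM of the 38 genes in each library on a log axis, with values of 0 drawn left of the dotted line, C4-2B in blue and RC4-2B in orange. PRDX1 reaches the highest levels in both lines, and GSTP1 and GSTM4 are at 0 in all 6 libraries.

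The lowest members were mostly glutathione transferases. GSTP1, the pi-class transferase that conjugates glutathione to electrophilic drugs, had 0 counts in each of the 6 libraries, which allows up to 0.170 to 0.188 CPM per library. GSTM4, a mu-class transferase, also had 0 counts in every library. GSTM2, its mu-class neighbour on chromosome 1, had 0, 6 and 5 counts in C4-2B and 3, 1 and 0 counts in RC4-2B. GPX2, a selenium-dependent glutathione peroxidase best known from the gut, had 7, 5 and 8 counts in C4-2B and 8, 16 and 6 counts in RC4-2B. Its gene span overlaps CHURC1 on the opposite strand, which held 4444 counts against 50 for GPX2, and whether the counting used strand is not given in the sources used here. In contrast, the mu-class gene GSTM3 was plainly detected, at 16.04 ± 0.634 FPKM in C4-2B and 17.1 ± 2.11 FPKM in RC4-2B. Mu-class genes resemble one another closely, so reads that fit several of them may have been assigned or dropped in a way that is not known here.

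The promoters of the 4 genes with the smallest p-values, TXNRD1, ME1, NQO1 and GSTA4, and of GSTP1 are shown because antioxidant response elements, where NRF2 binds, are read from such sequences. Each is the RefSeq window (GRCh38.p14) of 300 bases, 250 before and 50 after the annotated start, written 5′ to 3′ on the strand of the gene. Capitals mark matches to the core of the antioxidant response element, TGACNNNGC, or to its reverse complement. The TXNRD1 window is at chr12:104215529-104215828 on the plus strand, ME1 at chr6:83431002-83431301 on the minus strand, GSTA4 at chr6:52995235-52995534 on the minus strand, NQO1 at chr16:69726511-69726810 on the minus strand and GSTP1 at chr11:67583562-67583861 on the plus strand.
TXNRD1: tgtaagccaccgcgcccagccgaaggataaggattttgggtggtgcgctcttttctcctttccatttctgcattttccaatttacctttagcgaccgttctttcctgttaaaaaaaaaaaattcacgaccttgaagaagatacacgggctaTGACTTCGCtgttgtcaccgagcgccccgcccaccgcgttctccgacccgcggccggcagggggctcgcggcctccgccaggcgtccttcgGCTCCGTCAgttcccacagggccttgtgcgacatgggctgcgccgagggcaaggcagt
ME1: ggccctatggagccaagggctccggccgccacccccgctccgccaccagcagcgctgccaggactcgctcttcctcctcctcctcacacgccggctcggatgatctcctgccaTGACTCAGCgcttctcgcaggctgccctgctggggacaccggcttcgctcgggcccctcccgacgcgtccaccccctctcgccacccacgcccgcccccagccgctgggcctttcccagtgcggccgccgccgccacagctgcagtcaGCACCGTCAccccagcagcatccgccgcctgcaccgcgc
GSTA4: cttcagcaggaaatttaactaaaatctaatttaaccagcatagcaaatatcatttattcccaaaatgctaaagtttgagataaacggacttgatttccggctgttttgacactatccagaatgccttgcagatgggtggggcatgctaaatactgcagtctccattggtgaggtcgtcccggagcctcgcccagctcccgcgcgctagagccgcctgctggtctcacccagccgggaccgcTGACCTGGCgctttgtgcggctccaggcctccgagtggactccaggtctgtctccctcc
NQO1: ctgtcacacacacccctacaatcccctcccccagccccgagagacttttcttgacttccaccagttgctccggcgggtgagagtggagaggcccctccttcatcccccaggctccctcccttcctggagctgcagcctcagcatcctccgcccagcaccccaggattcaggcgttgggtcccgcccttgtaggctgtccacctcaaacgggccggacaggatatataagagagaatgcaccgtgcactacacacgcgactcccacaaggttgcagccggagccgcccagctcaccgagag
GSTP1: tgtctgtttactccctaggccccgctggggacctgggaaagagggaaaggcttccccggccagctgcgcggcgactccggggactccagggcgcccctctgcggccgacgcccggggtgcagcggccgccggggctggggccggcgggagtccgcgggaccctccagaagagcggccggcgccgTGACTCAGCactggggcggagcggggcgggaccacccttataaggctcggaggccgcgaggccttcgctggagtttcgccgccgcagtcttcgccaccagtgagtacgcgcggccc

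In the TXNRD1 window the matches began at -99 and -8 relative to the start, and a further TXNRD1 window at a downstream start held 1 match, at -102. ME1 had matches at -137 and 11, GSTA4 had 1 at -9 and GSTP1 had 1 at -66. The match of ME1 at -137 and that of GSTP1 consist of the same 9 letters, TGACTCAGC, which also contain the AP-1 motif TGACTCA. In C4-2B the level of ME1 was 35.3 ± 0.456 FPKM, and GSTP1 was at 0 FPKM. The NQO1 window held no match, which says only that these letters are absent from these 300 bases. Windows were given for 30 of the 38 genes, 40 windows in all, and 11 of the 40 (27.5%), from 10 genes, held the motif on either strand. Among all 35116 RefSeq windows of the same length the share was 13.35%. The other genes with a match were KEAP1, GCLM, GPX2, PGD, GSTO1 and MGST1. SLC7A11, GSS, GSR, HMOX1, PRDX1, PRDX6, SOD1 and MGST2 were not examined in this way. A match describes the sequence and is not evidence that NRF2 binds there.

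The first question was whether the sensor and the transcription factor themselves differed. Neither NFE2L2 nor KEAP1 was called. NFE2L2 (chr2:177227595-177392697, minus strand) read 53.5, 55.2 and 53.7 CPM across C4-2B and 57.2, 90.0 and 65.5 CPM across RC4-2B. Every RC4-2B library lay above every C4-2B library, and RC4-2B replicate 2 was by far the highest. Its log2 fold change was 0.39 (SE 0.169, 95% interval 0.0040 to 0.78), with an adjusted p of 0.231 in edgeR. Without RC4-2B replicate 2 it was 0.18 (SE 0.0915), with an adjusted p of 0.215. The span of NFE2L2 overlaps AGPS on the opposite strand, which held 5582 counts against 6423 for NFE2L2, so their reads cannot be told apart if strand was not used.

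KEAP1 (chr19:10486120-10503741, minus strand), the adaptor of the ubiquitin ligase that removes NRF2, read 189, 177 and 161 CPM across C4-2B and 159, 115 and 158 CPM across RC4-2B. The RC4-2B libraries lay below those of C4-2B, narrowly for replicates 1 and 3. For KEAP1 the log2 fold change was -0.29 (SE 0.147, 95% interval -0.62 to 0.05), with an adjusted p of 0.282 in edgeR. KEAP1 has a transcript of 60.8% GC, and with the GC offset its log2 fold change was 0.03. Leaving out RC4-2B replicate 2 gave -0.15 (SE 0.0859) without the offset and -0.04 with it.

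Glutathione synthesis starts with cystine import by SLC7A11, the light chain of the cystine/glutamate antiporter, and proceeds through glutamate-cysteine ligase (GCLC and GCLM) and glutathione synthetase (GSS), while glutathione reductase (GSR) returns the oxidised form. None of these 5 genes was called by edgeR with all libraries and no correction, and SLC7A11 alone of them was called lower without RC4-2B replicate 2. SLC7A11 (chr4:138164097-138242349, minus strand) read 133, 174 and 150 CPM across C4-2B and 120, 162 and 86.2 CPM across RC4-2B. The lines overlapped because RC4-2B replicate 2 lay inside the range of C4-2B, whereas the other RC4-2B libraries lay below it. The log2 fold change was -0.31 (SE 0.218, 95% interval -0.81 to 0.19), with an adjusted p of 0.408 in edgeR. Without RC4-2B replicate 2 it was -0.56 (SE 0.131), with an adjusted p of 0.0113. With all libraries it was -0.52 (adjusted p 0.0753) under the GC offset and -0.54 (adjusted p 0.0411) under that offset with the replicate number as a block.

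GCLC read 37.2, 41.5 and 40.9 CPM across C4-2B and 36.3, 40.0 and 37.5 CPM across RC4-2B. The lines overlapped, and the 95% interval of the log2 fold change was -0.33 to 0.19. GCLM, whose subunit makes the ligase more efficient, read 70.3, 75.5 and 66.1 CPM across C4-2B and 66.8, 82.9 and 85.4 CPM across RC4-2B. Here too the lines overlapped, because RC4-2B replicate 1 lay within the range of C4-2B, and the interval was -0.15 to 0.45. For GSS the interval was -0.37 to 0.10, and for GSR, the most abundant of the 5 at 113 ± 2.39 FPKM in C4-2B and 112 ± 13.7 FPKM in RC4-2B, it was -0.27 to 0.21. GCLC, GCLM, GSS and GSR had log2 fold changes of -0.11, 0.11, -0.09 and -0.10 without RC4-2B replicate 2. With all libraries, changes of these 4 genes beyond 0.45 in either direction on the log2 scale lay outside these intervals.

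The quinone reductase NQO1 and heme oxygenase HMOX1 are widely used readouts of NRF2 activity. Their values followed different patterns over the libraries. NQO1 (chr16:69706996-69726951, minus strand) read 217, 196 and 186 CPM across C4-2B and 143, 145 and 171 CPM across RC4-2B. All RC4-2B libraries lay below all C4-2B libraries, with a mean of 200 ± 15.8 CPM across C4-2B and 153 ± 15.8 CPM across RC4-2B. NQO1 had a log2 fold change of -0.38 (SE 0.118, 95% interval -0.65 to -0.11), with an adjusted p of 0.131 in edgeR. It was -0.35 (adjusted p 0.0274) without RC4-2B replicate 2 and -0.50 (adjusted p 0.0313) with the GC offset. HMOX1, which degrades heme, read 20.9, 21.1 and 20.2 CPM across C4-2B and 20.9, 11.8 and 22.3 CPM across RC4-2B. Only RC4-2B replicate 2 departed from the rest, and the transcript has 58.5% GC. HMOX1 had a log2 fold change of -0.17 (SE 0.228, 95% interval -0.70 to 0.35) with that library and 0.06 (SE 0.111) without it.

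In the thioredoxin and peroxiredoxin system, thioredoxin reductase and sulfiredoxin had log2 fold changes of opposite sign. TXNRD1 (chr12:104215779-104350305, plus strand), the cytosolic selenoprotein that reduces thioredoxin with NADPH, read 521, 558 and 523 CPM across C4-2B and 723, 700 and 811 CPM across RC4-2B. The groups were well apart, and RC4-2B replicate 2 lay close to replicate 1. TXNRD1 had the smallest p of the 34 genes, with a log2 fold change of 0.48 (SE 0.0994, 95% interval 0.25 to 0.71), a 1.40-fold ratio. Its adjusted p in edgeR was 0.0523, just above the threshold, and it was 0.0107 in DESeq2 and 5.7e-04 without RC4-2B replicate 2. Of 17 alternatives to the main fit, 5 called TXNRD1, and its adjusted p ranged from 4.7e-04 to 0.264 over them. On the length-corrected scale its level was 71.3 ± 2.45 FPKM in C4-2B and 101 ± 7.09 FPKM in RC4-2B. A pseudogene within its span, RPL18AP3, held 1016 counts against 65416 for TXNRD1.

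SRXN1 (chr20:646615-653370, minus strand), which repairs overoxidised peroxiredoxins, read 15.9, 15.8 and 15.3 CPM across C4-2B and 12.6, 1.94 and 9.81 CPM across RC4-2B. All RC4-2B libraries lay below C4-2B, but replicate 2 stood far below the others. The log2 fold change of -0.95 was the largest in size among the 34 genes and also the least certain (SE 0.504, 95% interval -2.10 to 0.20), with an adjusted p of 0.295 in edgeR. Without RC4-2B replicate 2 it was -0.48 (SE 0.142), with an adjusted p of 0.0361. The GC content of its transcript, 51.7%, lies near the 48.2% median of all genes tested, and with the GC offset on all libraries its log2 fold change was -0.94. What lowered the count of SRXN1 in that library was not tested.

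Thioredoxin itself (TXN), the reductant that TXNRD1 recharges, had a log2 fold change of 0.03 (95% interval -0.29 to 0.35), and -0.13 without RC4-2B replicate 2. The peroxiredoxins PRDX1, PRDX2 and PRDX6, which reduce peroxides in the cytosol, and PRDX3, which does so in mitochondria, had log2 fold changes of 0.20, -0.07, 0.18 and -0.20, and none was called. PRDX1 read 545, 514 and 485 CPM across C4-2B and 620, 543 and 614 CPM across RC4-2B. RC4-2B replicates 1 and 3 lay above C4-2B, replicate 2 lay at the upper end of it, and PRDX1 was called without that library (0.26, adjusted p 0.0352). PRDX6 was higher in each RC4-2B library than in any C4-2B library (log2 fold change 0.18, SE 0.102, adjusted p 0.313 in edgeR). PRDX6, PRDX2 and PRDX3 had log2 fold changes of 0.11, -0.13 and -0.10 without RC4-2B replicate 2.

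**Figure D4:**
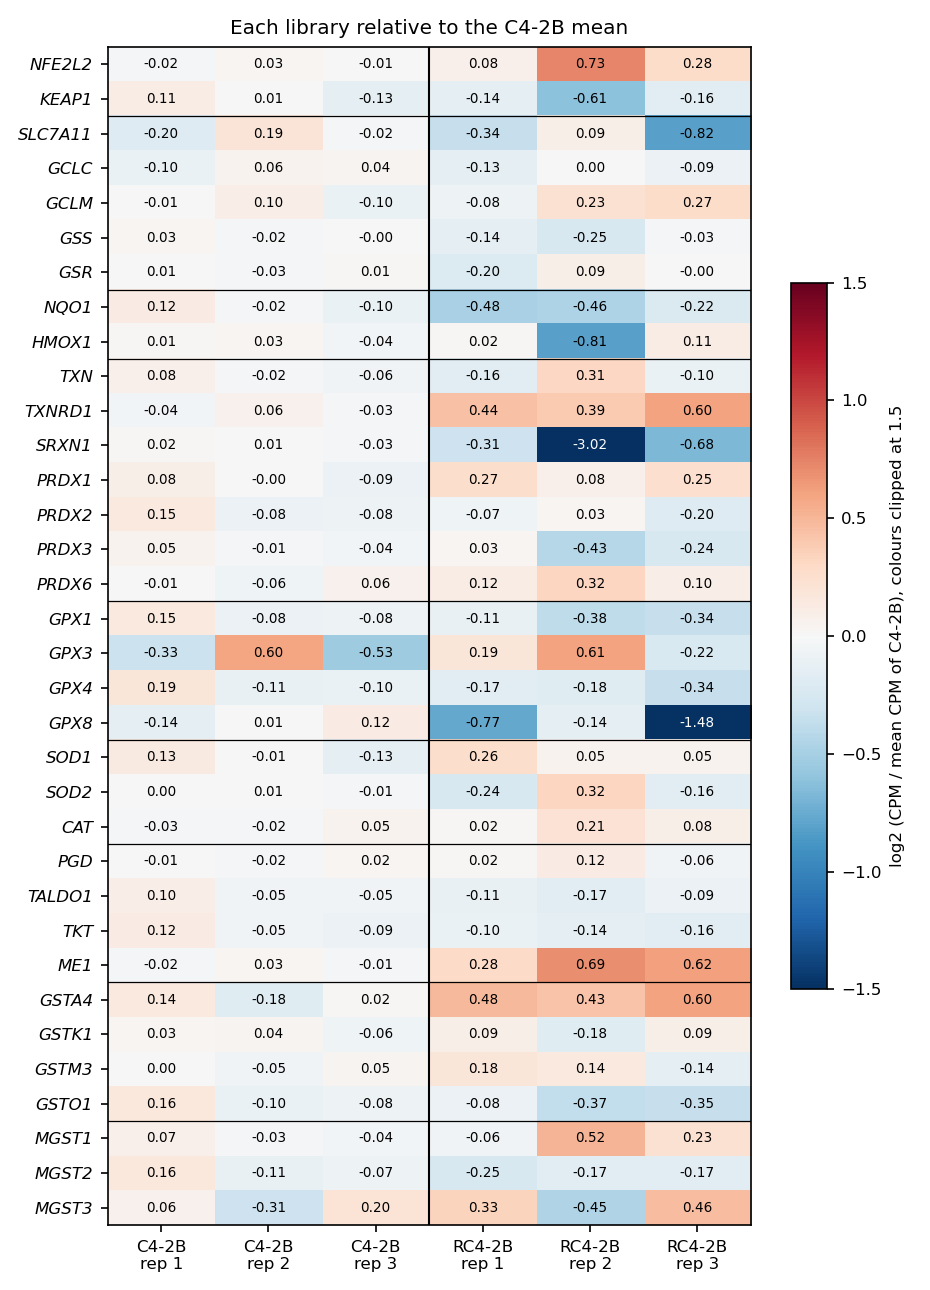
Log2 ratio of CPM in each library to the mean CPM of C4-2B for the 34 genes tested, with colours clipped at 1.5 in either direction and the value written in each cell. TXNRD1, ME1 and GSTA4 are red in all 3 RC4-2B libraries, NQO1 is blue in all 3, and the -3.02 of SRXN1 in RC4-2B replicate 2 is the most extreme value.

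Many, but not all, glutathione peroxidases spend glutathione to reduce hydrogen peroxide or lipid peroxides. Of the 4 tested, 3 had log2 fold changes below 0, and none was called by edgeR with all libraries and no correction. GPX8, a peroxidase of the endoplasmic reticulum, read 12.8, 14.2 and 15.3 CPM across C4-2B and 8.25, 12.8 and 5.05 CPM across RC4-2B. RC4-2B replicate 2 met the lowest C4-2B library, and the other RC4-2B libraries lay below. The log2 fold change was -0.69 (SE 0.297, 95% interval -1.37 to -0.02), with an adjusted p of 0.227 in edgeR. Without RC4-2B replicate 2 it was -1.09 (SE 0.189), with an adjusted p of 0.0018, and with the GC offset on all libraries it was -0.89, with an adjusted p of 0.0405. The level was low, at 3.26 ± 0.309 FPKM in C4-2B and 2.06 ± 0.963 FPKM in RC4-2B.

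GPX1, the abundant cytosolic enzyme, had a log2 fold change of -0.27 (SE 0.118, 95% interval -0.54 to -0.00043), and GPX4, which protects membranes from lipid peroxidation and blocks ferroptosis, had -0.23 (SE 0.118, 95% interval -0.50 to 0.04). All RC4-2B libraries lay below all C4-2B libraries for both genes. Their transcripts have 64.1% and 62.5% GC, and with the GC offset the log2 fold changes were 0.23 for GPX1 and 0.22 for GPX4. With that offset and without RC4-2B replicate 2 they were -0.08 and -0.13. The secreted enzyme GPX3 was near the detection limit at 0.569 to 1.25 CPM, with a log2 fold change of 0.23 (95% interval -0.73 to 1.18) and of -0.01 without RC4-2B replicate 2.

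Superoxide dismutases turn superoxide into hydrogen peroxide, which catalase splits. The values of the 2 lines overlapped for all 3 of these genes. The log2 fold changes were 0.12 for the cytosolic SOD1 (95% interval -0.14 to 0.39), -0.00615 for the mitochondrial SOD2 (-0.38 to 0.37) and 0.11 for the peroxisomal CAT (-0.12 to 0.34). SOD2 had the lowest FPKM of them as counted, with a range of 1.70 to 2.61 FPKM over the 6 libraries, against 87.5 to 114 FPKM for SOD1. SOD2 and CAT had log2 fold changes of -0.20 (SE 0.0967) and 0.05 without RC4-2B replicate 2. The second SOD2 entry held 0 counts in all libraries. It overlaps the main entry on the same strand, and how reads in the shared part were counted is not known here. The main entry also overlaps WTAP on the opposite strand, which held 11667 counts against 3793. The level of SOD2 carries both uncertainties.

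NADPH for glutathione reductase and thioredoxin reductase comes from the pentose phosphate pathway (PGD, with TALDO1 and TKT in its non-oxidative arm) and from malic enzyme (ME1). Of these genes, ME1 stood apart from the rest. ME1 (chr6:83210389-83431071, minus strand) read 131, 135 and 132 CPM across C4-2B and 161, 214 and 204 CPM across RC4-2B. The lowest RC4-2B library exceeded the highest C4-2B library, and the C4-2B libraries lay close together. Its log2 fold change of 0.54 (SE 0.127, 95% interval 0.25 to 0.83), a 1.46-fold ratio, was the highest of the 34 genes, with an adjusted p of 0.0708 in edgeR and 0.0209 in DESeq2. It was 0.46 (adjusted p 0.0054) without RC4-2B replicate 2 and 0.66 (adjusted p 0.0326) without RC4-2B replicate 1. Of 17 alternatives to the main fit, 6 called ME1, and its adjusted p ranged from 0.0048 to 0.313 over them. PGD, TALDO1 and TKT had log2 fold changes of 0.03, -0.12 and -0.14, each with a 95% interval inside -0.36 to 0.25, and PGD was at -0.02 without RC4-2B replicate 2.

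Glutathione transferases couple glutathione to electrophiles. GSTA4, an alpha-class enzyme that acts on the lipid peroxidation product 4-hydroxynonenal, read 9.61, 7.70 and 8.82 CPM across C4-2B and 12.2, 11.7 and 13.2 CPM across RC4-2B. All RC4-2B libraries lay above all C4-2B libraries. GSTA4 had a log2 fold change of 0.51 (SE 0.157, 95% interval 0.15 to 0.87) and an adjusted p of 0.133 in edgeR, and without RC4-2B replicate 2 it was 0.55 with an adjusted p of 0.0279. GSTK1, of mitochondria and peroxisomes, had a log2 fold change of 0.0051 (95% interval -0.27 to 0.28), GSTM3 had 0.07 (-0.21 to 0.35), and GSTO1, which also reduces arsenic compounds, had -0.26 (-0.57 to 0.04). The membrane-bound transferases MGST1, MGST2 and MGST3 had log2 fold changes of 0.25, -0.19 and 0.16. For MGST1 the 95% interval was -0.09 to 0.58. It had the highest mean of the transferases in RC4-2B, at 31.8 ± 7.004 FPKM, but GSTO1 exceeded it in RC4-2B replicate 1 (27.3 against 25.2 FPKM). In C4-2B the mean of GSTO1 was the higher, at 29.0 against 26.2 FPKM for MGST1. MGST1, MGST3, GSTK1 and GSTM3 had log2 fold changes of 0.09, 0.40 (adjusted p 0.0625 in edgeR for MGST3), 0.09 and 0.03 without RC4-2B replicate 2.

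Other genes of the same pathways were read from the same fit, in lists also chosen with earlier results of these data known. In 5 lists of NRF2 partners, further NRF2 targets, further thioredoxin-related genes, further glutathione transferases, and genes of glutathione breakdown and cysteine supply, 65 of 84 listed genes were tested. Of these 65 genes, 1 rose and 5 fell in RC4-2B, where 1.08% of all genes tested were called higher and 0.903% lower. The 14 NRF2 partners and regulators, of which 13 were tested, gave no call in either direction with edgeR, and the median log2 fold change was 0.15. At an unadjusted p under 0.05, 1 was higher and 2 were lower, beside 12% and 9.42% of all genes. DESeq2 called 1 higher, beside 3.28% of all genes. BACH1, which competes with NRF2 for its elements and represses the genes that carry them, read 19.6, 21.0 and 21.1 CPM across C4-2B and 26.6, 35.4 and 35.8 CPM across RC4-2B (log2 fold change 0.67, SE 0.151, adjusted p 0.0645 in edgeR). It was called higher without RC4-2B replicate 2 (0.60, adjusted p 0.0064 in edgeR) and with the GC offset (0.47, adjusted p 0.0347). BACH1, and TXNRD2 and PRDX5 of the next list, are named here after their values were seen. MAFG and MAFK, small MAF partners of NRF2, had log2 fold changes of 0.15 and -0.86, and neither was called with all libraries. Both were called without RC4-2B replicate 2, MAFG with 0.34 (adjusted p 0.0253) and MAFK with -0.47 (adjusted p 0.0167). In that setting 3 of the 13 genes were called higher and 1 lower, beside 6.5% and 6.02% of all genes. The 16 further thioredoxin-related genes tested also gave no call with edgeR, with a median of -0.075. At an unadjusted p under 0.05, 2 were higher and 4 were lower, beside 12% and 9.42% of all genes. DESeq2 called 3 lower, beside 2.64% of all genes. Of the 16, 5 were called lower and 0 higher without RC4-2B replicate 2 (6.02% of all genes were called lower), and 4 lower and 0 higher with the GC offset (3.25% of all genes). TXNRD2, the mitochondrial thioredoxin reductase, had log2 fold changes of -0.91 with all libraries (adjusted p 0.117 in edgeR), -0.62 without RC4-2B replicate 2 (adjusted p 0.00036) and -0.59 with the GC offset (adjusted p 0.0081). For PRDX5, another peroxiredoxin, the same values were -0.67 (adjusted p 0.129 in edgeR), -0.46 (adjusted p 0.0063) and -0.39 (adjusted p 0.0302).

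The 16 further NRF2 targets tested had a median log2 fold change of 0.13, with 10 above 0 and 6 below. With all libraries edgeR called 0 higher and 1 lower, which is not named here, beside 1.08% and 0.903% of all genes. Without RC4-2B replicate 2 it called 3 higher and 2 lower, beside 6.5% and 6.02% of all genes. With the GC offset it called 3 higher and 1 lower, beside 4.36% and 3.25%. PIR, an iron-binding nuclear protein, read 61.7, 57.1 and 54.5 CPM across C4-2B and 73.8, 74.4 and 74.4 CPM across RC4-2B. All RC4-2B libraries lay above all C4-2B libraries, and the log2 fold change was 0.36 (SE 0.107, adjusted p 0.122 in edgeR). It was again 0.36 without RC4-2B replicate 2, now called (adjusted p 0.0159), and 0.39 with the GC offset (adjusted p 0.0301). FECH of the same list went the other way, with a log2 fold change of -0.29 (adjusted p 0.139 in edgeR). For FECH it was -0.27 without RC4-2B replicate 2 (adjusted p 0.0275) and -0.41 with the GC offset (adjusted p 0.0333).

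Among the further transferases, 8 of 15 were tested, and 1 rose and 1 fell. GSTA1, an alpha-class transferase, rose from 0.835, 0.453 and 0.740 CPM in C4-2B to 2.63, 2.28 and 3.41 CPM in RC4-2B (log2 fold change 2.03, SE 0.330, adjusted p 0.0237 in edgeR). GSTT2B, of the theta class, read 3.82, 3.28 and 2.68 CPM across C4-2B and 0.938, 0.342 and 0.822 CPM across RC4-2B (log2 fold change -2.21, SE 0.368, adjusted p 0.0255 in edgeR). Both are transcripts of few counts with near-identical copies (GSTA2 and GSTT2), so their assignment is uncertain.

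The last list held genes of glutathione breakdown and cysteine supply. Of the 12 tested, 3 fell and 0 rose, beside 0.903% and 1.08% of all genes, and all 12 had log2 fold changes below 0, with a median of -0.66 against 0.0063 over all genes tested. When RC4-2B replicate 2 was left out, 7 of the 12 were called lower (6.02% of all genes were), the median was -0.44 and 2 of the 12 were above 0. SLC1A5, a neutral amino acid transporter that carries glutamine, read 201, 190 and 182 CPM across C4-2B and 117, 82.4 and 96.8 CPM across RC4-2B, and it fell by 0.95 on the log2 scale (SE 0.141, adjusted p 0.0164 in edgeR). CTH, the transsulfuration enzyme that releases cysteine from cystathionine, read 22.0, 23.7 and 25.3 CPM across C4-2B and 12.8, 9.12 and 8.46 CPM across RC4-2B, and it fell by 1.23 (SE 0.184, adjusted p 0.0178). GGT1, the surface enzyme that cleaves extracellular glutathione, read 58.4, 57.8 and 62.2 CPM across C4-2B and 38.5, 36.8 and 37.0 CPM across RC4-2B, and it fell by 0.67 (SE 0.106, adjusted p 0.0214). The GGT1 transcript has 61.7% GC, and with the GC offset on all libraries its log2 fold change was -0.28, with an adjusted p of 0.322. With the offset and without RC4-2B replicate 2 it was -0.54 (adjusted p 5.9e-04 in edgeR). With the offset on all libraries SLC1A5 had a log2 fold change of -0.62 (adjusted p 0.0092). GGT1 belongs to a family of closely similar copies on chromosome 22, so its counts carry that uncertainty.

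Members of the list that did not pass included SLC3A2, the heavy chain that pairs with SLC7A11 to form the cystine antiporter, with a log2 fold change of -0.66 (SE 0.174, adjusted p 0.0928 in edgeR). CHAC1, which degrades intracellular glutathione, had -1.36 (SE 0.360, adjusted p 0.0949 in edgeR) and SLC1A4 -0.52 (adjusted p 0.129 in edgeR). Without RC4-2B replicate 2, edgeR called CHAC1 (-1.06, adjusted p 0.0057) and SLC1A4 (-0.64, adjusted p 0.0045) lower. With the GC offset on all libraries it called both lower too (-1.10, adjusted p 0.0207, and -0.61, adjusted p 0.0182). Both chains of the antiporter were called lower without RC4-2B replicate 2, SLC3A2 with a log2 fold change of -0.50 (adjusted p 0.0054) beside the -0.56 of SLC7A11. CBS, the transsulfuration enzyme before CTH, had a log2 fold change of -0.67 (adjusted p 0.248 in edgeR, and -0.38 without RC4-2B replicate 2), and its values of 41.0, 14.9 and 23.5 CPM spread widely within RC4-2B. The calls of GSTA1, GSTT2B, SLC1A5, CTH and GGT1 did not hold under every omission of a library. Leaving out any 1 C4-2B library, or RC4-2B replicate 3, moved all 5 above the threshold of edgeR, to adjusted p-values between 0.0781 and 0.160, with all 5 keeping their direction. Without RC4-2B replicate 2 all 5 stayed called in edgeR, with adjusted p-values from 4.9e-05 for SLC1A5 to 0.0017 for GSTT2B. Of 17 alternatives to the main fit, SLC1A5 and CTH were called in 13 each, GSTA1 in 12, GSTT2B in 11 and GGT1 in 10.

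**Figure D5:**
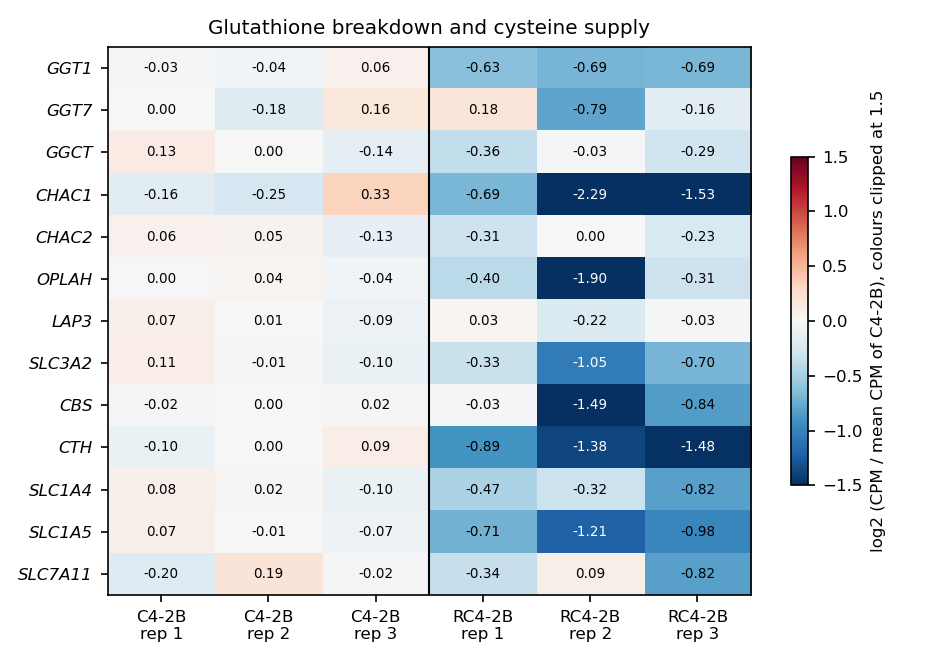
Log2 ratio of CPM in each library to the mean CPM of C4-2B for the 12 tested genes of glutathione breakdown and cysteine supply and for SLC7A11, with colours clipped at 1.5 in either direction. GGT1, CTH, SLC1A4 and SLC1A5 are below 0 in all 3 RC4-2B libraries, while OPLAH and CBS are far lower in RC4-2B replicate 2 than in the other RC4-2B libraries.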

How the data were processed

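RNA-seq was performed on 3 C4-2B and 3 RC4-2B libraries. The authors mapped reads with STAR to GRCh38, as the paper's methods and the submitters' processing notes state, and deposited whole-number read counts per gene, without normalization, together with FPKM values per gene. The counting program, its handling of strand and of reads with several matches, and the annotation release are not given in the sources used here. For the medium, the labels give fetal bovine serum and the paper gives that and charcoal-stripped serum.

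The counts were tested with edgeR 4.0.16 under R 4.3.3 (TMM, filterByExpr with a minimum of 10 counts, glmQLFit and glmQLFTest without robust estimation, cell line as the only term), with Benjamini-Hochberg adjustment over the 15054 genes tested and 0.05 as the threshold. Each standard error was obtained from the log2 fold change and its F statistic, and 95% intervals use the degrees of freedom of the fit. CPM values are TMM-scaled. Detection limits of 3 counts cover counting error only. In simulated data with the mean levels and the trended spread of this fit, 200 of 200 genes changed 4-fold were recovered and 9 of 14628 unchanged genes were called. The simulation held no GC trend and no outlying library such as RC4-2B replicate 2. It therefore checks the code and does not give the power for smaller changes in these data.

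The alternatives were DESeq2 1.42.0, RLE and upper-quartile scaling, no filter on low counts, a filter on the mean count (10), omission of every library in turn, a block for the replicate number, limma 3.58.1 on log2 FPKM with a pseudocount of 1 or 0.1 (genes reaching 1 FPKM in 3 libraries), and an offset for GC content. The offset was a lowess trend (span 0.2) of each library's deviation on the GC content of the longest GENCODE transcript, known for 99.6% of genes tested, and it also removes any mean GC trend between the lines. The offset without RC4-2B replicate 2 was added after seeing the data. Members and lists were chosen with earlier results of these data known. Values in every library are printed for NFE2L2, KEAP1, NQO1, HMOX1, GCLC, GCLM, SLC7A11, TXNRD1, SRXN1 and GSTP1, the 5 with the smallest p-values and the 3 with the largest log2 fold changes, and the called genes of the lists, of which 1 is not reported here, nor are some markers, while PRDX1, GPX2, GSTM2, GSTM4, BACH1 and the uncalled genes of the lists were named after their values were seen.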

Additional observations from a re-analysis of the deposited data

How the results depend on the processing

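The replicate numbers were not taken to pair the samples: deviations of same-numbered libraries correlated at 0.318, 0.178 and -0.069 across 11189 genes, and not every library correlated best with its own number. With the replicate block, 0 of the 34 genes were called, as without it, and the calls over all genes went to 55 higher and 74 lower and those in the lists to 0 higher and 2 lower.

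Of the 34 genes, those called higher (0 with all libraries in edgeR) were 1 with upper-quartile scaling, 2 with DESeq2, 2 with no filter, 1 with the GC offset and 3 with the GC offset without RC4-2B replicate 2. Those called lower (0) were 1 with no filter, 2 with the GC offset, 3 with that offset and the block, and 4 with the offset without RC4-2B replicate 2. Leaving out 1 library gave 0 to 4 in each direction. Over all genes, the 162 higher and 136 lower became 500 and 402 with DESeq2, 604 and 646 with no filter, 46 and 58 with limma at a pseudocount of 1, 39 and 47 at 0.1, 657 and 490 with the GC offset, 642 and 564 with that offset and the block, and 1037 and 1013 with the offset without RC4-2B replicate 2. Leaving out 1 library gave 13 to 1000 higher and 31 to 925 lower. In the lists, the 1 higher and 5 lower became 2 and 10 with DESeq2, 2 and 12 with no filter, 3 lower with limma at 0.1, 5 and 12 with the GC offset, with or without the block, 8 and 19 with the offset without RC4-2B replicate 2, and 0 to 7 and 0 to 16 with 1 library left out.

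The GC offset turned the sign of 6 genes whose log2 fold change had exceeded 1 SE and of 5 within 1 SE of 0, none of them called. For the 6 the log2 fold change was then 0.026 for KEAP1, -0.054 for GCLM, 0.23 for GPX1, 0.22 for GPX4, -0.0025 for CAT and 0.016 for TKT. With the replicate block added it was 0.025, -0.058, 0.18, 0.16, -0.0023 and 0.0093. With the offset and without RC4-2B replicate 2, 0 of the 6 were turned. Their values were then -0.044, 0.023, -0.075, -0.13, 0.0013 and -0.0975, in the same order. In 3 against 3 libraries, the median half-width of the 95% interval for the 34 genes was 0.28 on the log2 scale, and smaller differences were mostly not detectable. That interval is not adjusted for the number of genes tested, so larger differences could be missed too. TXNRD1 at 0.48 and ME1 at 0.54 were not called with all libraries in edgeR. GSTP1, GSTM4, GSTM2 and GPX2 were too low to be tested.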
